A study of Mus musculus with 10 samples.

Results

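The genes described here are 35 genes of antigen presentation by the major histocompatibility complex (MHC), measured by RNA-seq in hematopoietic stem cells (HSCs). They were chosen by symbol and not by their values, and all 35 were found among the 26146 genes of the count table. They comprise 9 class I heavy chains, 11 genes for the class I light chain, peptide supply and loading, 2 transactivators, 8 class II chains and chaperones, 3 genes of class II endosomal processing and 2 class I-like genes. All 35 were among the 14165 genes that passed the filter on low counts and were tested.

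HSCs were sorted as Lin-Sca1+Kit+ (LSK) CD48-CD150+ cells from 5 *Cited2* CTL mice and 5 *Cited2* CKO mice. The animals were 8 to 12 weeks old and on a C57BL/6J background. CTL mice, which the sample labels call wildtype, were *Cited2* fl/fl without Cre. CKO mice were *Cited2* fl/fl with *Vav-iCre*, a transgene that is active throughout the hematopoietic system and shortly after HSCs emerge, so loss of the gene precedes the sort. No control carried the Cre alone, so the Cre and the loss of *Cited2* cannot be told apart. CITED2 is a transcriptional coregulator that binds CBP and p300, and the comparison asks which transcripts differ in HSCs without it.

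Library totals lay between 3058690 and 4548795 counts. Levels are given as CPM, read counts scaled by edgeR to the normalized size of each library. A log2 change is the log2 fold change fitted by edgeR, CKO minus CTL, and is given ± its standard error. *Cited2* itself was at 101 to 222 CPM in the CTL libraries and at 3.80 to 8.30 CPM in 4 CKO libraries. It was at 120.1 CPM in the library labelled CKO 3. With this library kept, the log2 change of *Cited2* was -2.51 (adjusted p = 0.328, edgeR). The deleted gene itself thus did not pass an adjusted p of 0.05. The library labelled CKO 2 had both *Xist* (1307 CPM) and the Y-linked *Ddx3y* (118.7 CPM). Both libraries were kept, and the class medians, the transactivators, the classical class II chains, *Cd74* and *Ctss* are also given without them. The 8 HSC markers, among them *Kit*, *Mecom* and *Hlf*, had counts in all 10 libraries. Their summed level was 1849 to 2141 CPM in CTL and 1637 to 1829 CPM in CKO libraries. Of these markers, 3 had a log2 change above 0 and 5 below.

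MHC class I molecules are heavy chains paired with β2-microglobulin, and they present peptides made inside the cell to CD8 T cells. The proteasome cuts the peptides, TAP carries them into the endoplasmic reticulum, and tapasin and ERAP1 help to load and trim them. Class II molecules are α and β chains that travel with the invariant chain (CD74) to endosomes, where cathepsins trim the invariant chain and the DM chaperone exchanges its remnant for peptide, for display to CD4 T cells. Class II is best known on B cells, dendritic cells and macrophages, while class I is made by nearly all nucleated cells. NLRC5 switches on class I genes and CIITA class II genes, both through a shared promoter module whose Y box is bound by NF-Y, and interferon-γ raises both sets. HSCs and early progenitors are known to carry both classes.

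Of the 35 genes, 21 lie on chromosome 17 of GRCm38, where the mouse MHC is, from *Tapbp* (33919478 to 33929290) to *H2-M3* (37270234 to 37274485). Motif letters were searched in the RefSeq promoter windows (GRCm38.p6, 250 bases before to 50 after the transcript start given there), which matched 27 of the 35 genes. The Y box letters CTGATTGG, searched on both strands, stood in the windows of 10 of these 27 genes and in 4.1% of all 32851 windows. These were *H2-K1*, *H2-D1*, *H2-Q6*, *H2-Q7*, *H2-T23*, *Tap1*, *Psmb9*, *H2-Aa*, *H2-Eb1* and *H2-Oa*, so genes of both classes. The kappa-B letters GGGATTCCC, a site of the kind that NF-κB binds, stood in 4 of the 27 windows, all class I heavy chains (*H2-K1*, *H2-D1*, *H2-Q6* and *H2-Q7*), and in 0.353% of all windows. The letters GAAANNGAA, the core of the element that interferon-activated factors bind, stood in 6 (*H2-T22*, *H2-T23*, *B2m*, *Psme1*, *Erap1* and *Ctss*) and in 8.56% of all windows. The matches are descriptions of exact letters, and binding was not measured. Whether a match is the Y box of the shared promoter module was not tested. The windows of 2 class I heavy chains, 2 class II chains, the class I light chain and cathepsin S are shown from 170 bases before the start to 30 after it, 5′ to 3′ on the strand of the gene. Capitals mark the matches to the 3 motifs, which did not overlap each other. On the strand printed, the Y box letters read CCAATCAG in *H2-K1* and *H2-D1* and CTGATTGG in the class II chains. In *H2-K1* they begin 9 bases after the start given, and in the other 3 genes before it. The *H2-K1* gene spans 33996012 to 34000619, so its printed window lies inside the gene and not at its outer start.
H2-K1, chr17:34000318-34000517, minus strand: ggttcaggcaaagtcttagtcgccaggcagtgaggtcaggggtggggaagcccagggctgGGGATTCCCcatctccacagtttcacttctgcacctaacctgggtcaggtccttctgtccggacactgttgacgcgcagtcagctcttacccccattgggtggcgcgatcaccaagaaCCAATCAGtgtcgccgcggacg
H2-D1, chr17:35262924-35263123, plus strand: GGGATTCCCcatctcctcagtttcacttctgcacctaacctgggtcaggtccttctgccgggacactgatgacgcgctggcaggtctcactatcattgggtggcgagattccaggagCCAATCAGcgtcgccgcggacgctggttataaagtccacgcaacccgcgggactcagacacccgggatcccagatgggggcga
H2-Aa, chr17:34287794-34287993, minus strand: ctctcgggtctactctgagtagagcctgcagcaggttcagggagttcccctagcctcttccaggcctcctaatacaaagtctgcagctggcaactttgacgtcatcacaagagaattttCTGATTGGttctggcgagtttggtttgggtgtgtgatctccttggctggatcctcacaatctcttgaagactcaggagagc
H2-Eb1, chr17:34305697-34305896, plus strand: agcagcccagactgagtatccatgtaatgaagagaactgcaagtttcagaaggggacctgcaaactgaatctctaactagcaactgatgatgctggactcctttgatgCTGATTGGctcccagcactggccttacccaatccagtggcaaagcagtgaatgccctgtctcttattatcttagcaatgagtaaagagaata
B2m, chr2:122147517-122147716, plus strand: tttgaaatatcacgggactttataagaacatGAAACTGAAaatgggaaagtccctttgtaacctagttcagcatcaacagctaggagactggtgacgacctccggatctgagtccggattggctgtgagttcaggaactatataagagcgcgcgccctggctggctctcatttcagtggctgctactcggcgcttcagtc
Ctss, chr3:95526616-95526815, plus strand: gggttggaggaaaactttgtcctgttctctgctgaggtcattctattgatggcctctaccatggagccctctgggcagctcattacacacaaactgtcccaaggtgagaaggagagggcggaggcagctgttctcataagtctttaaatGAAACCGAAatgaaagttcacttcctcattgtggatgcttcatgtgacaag

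In HSCs the class I genes *B2m*, *H2-K1* and *H2-D1* were among the most abundant transcripts of the table. Levels were compared between genes as CPM per kb of gene length, with means ± SD over n = 5 libraries per genotype. *B2m*, the light chain, was at 381 ± 52.1 CPM per kb in CTL HSCs, above 99.96% of tested genes, and *H2-K1*, the classical heavy chain K, was at 345 ± 42.2 CPM per kb, above 99.95%. *H2-D1*, the classical heavy chain D, followed at 266 ± 31.1 CPM per kb. The means of *B2m* and *H2-K1* differed by less than their SD, but *B2m* lay above *H2-K1* in every library. *H2-D1* lay below both in every library. The proteasome activator subunit *Psme1* (185.5 CPM per kb) and the immunoproteasome subunits *Psmb8* (172) and *Psmb9* (136) came next among the class I genes. Over all libraries the median level was 104 CPM per kb for the 9 heavy chains, 96.0 for the 11 light chain, supply and loading genes and 45.0 for the 11 class II genes, against 15.6 for all tested genes.

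**Figure D1:**
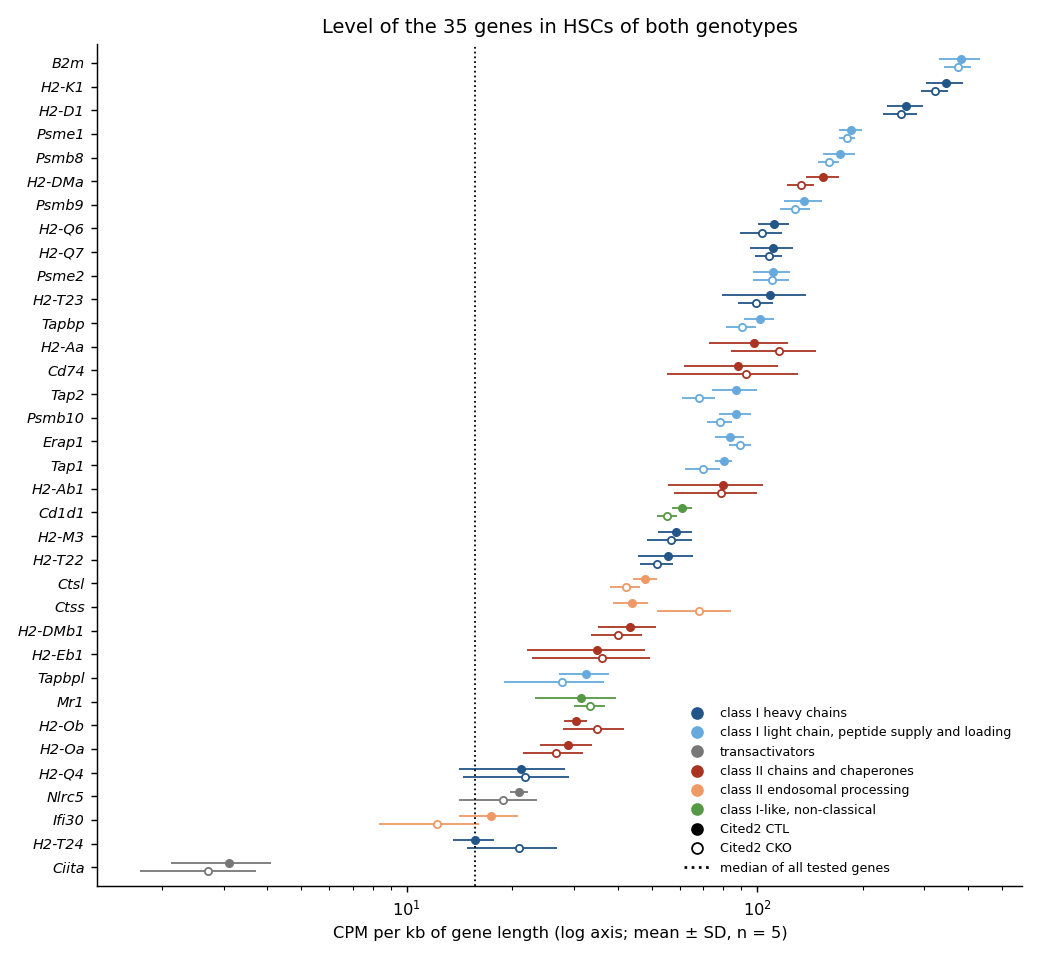
Level of each of the 35 genes in CPM per kb of gene length on a log axis, with filled points for *Cited2* CTL and open points for *Cited2* CKO libraries (mean ± SD, n = 5), colored by role. *B2m*, *H2-K1* and *H2-D1* lie highest, *Ciita* lies lowest, and the dotted line is the median of all tested genes (15.6).

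Class II transcripts were present as well. *H2-DMa*, a chain of the DM chaperone, was the highest class II gene at 154 CPM per kb in CTL HSCs, and *H2-Aa* (class II α chain, 97.6), *Cd74* (invariant chain, 88.3) and *H2-Ab1* (class II β chain, 80.0) were within one another's SD. *H2-Eb1*, a further β chain, was lower at 34.9 CPM per kb. In C57BL/6J mice its partner α gene carries a promoter deletion, so no E heterodimer reaches the surface. The lowest of the 35 genes was *Ciita*, the class II transactivator, at 3.11 CPM per kb (35 to 100 counts per library), while *Nlrc5*, the class I transactivator, was at 20.9 CPM per kb. *H2-Q4*, *Nlrc5*, *Ifi30* and *H2-T24* lay between 15.7 and 21.15 CPM per kb in CTL HSCs, near the median of all tested genes.

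None of the 35 genes was called different between the genotypes by edgeR's quasi-likelihood test (adjusted p under 0.05 over all tested genes and a fold change above 20%), where 32 of the 14165 tested genes, 0.226%, were called. At an unadjusted p under 0.05, 2 of the 35 genes were higher in CKO HSCs (*H2-T24* and *Ctss*) and 3 were lower (*Tap1*, *Tap2* and *H2-DMa*), which is 5.71% and 8.57% of the genes, against 5.8% and 7.08% of all tested genes. These shares were near the background. The CPM of the genotypes overlapped for all 35 genes, whereas 1.35% of tested genes had every CKO library above and 1.98% every CKO library below the CTL libraries. DESeq2's Wald test called 1 of the 35, *Ctss*, where it called 2.29% of all tested genes, and limma-voom called 0.

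**Figure D2:**
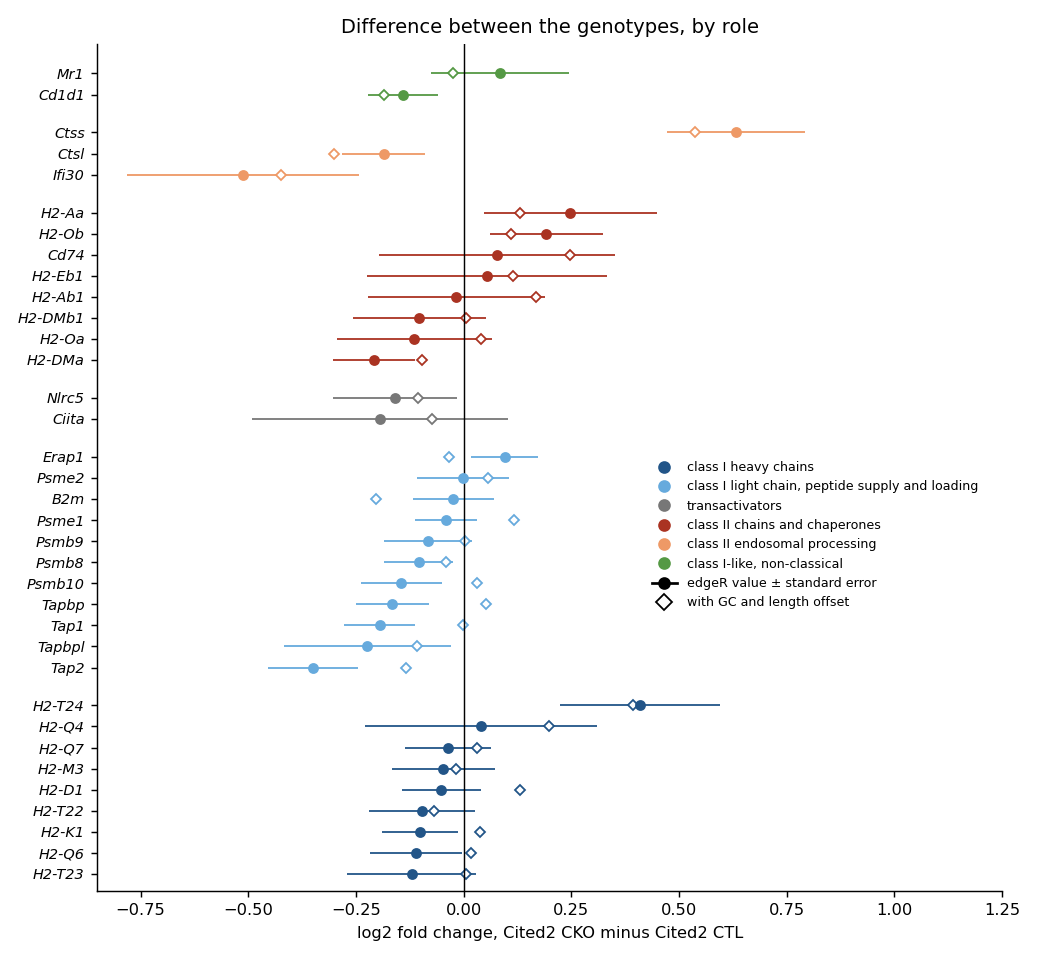
Log2 change (*Cited2* CKO minus CTL) of the 35 genes by role, with filled points for edgeR's values, bars for their standard error and open diamonds for the values with the GC and length offset. Most class I genes lie just below 0 without the offset and on both sides of 0 with it, and *Ctss* lies highest.

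Of the 20 class I genes, 17 had a log2 change below 0 and 3 above, with a median of -0.09, where the median of all tested genes was 0.01. With an offset fitted to the GC content and length of the genes, 8 lay below 0 and 12 above, and the median was 0.01. The class I genes had a median GC content of 54.2%, against 48.8% for all tested genes. Of the 11 class II genes, 6 lay below 0 and 5 above (median -0.02), and with the offset 3 below and 8 above (median 0.11). Without the library labelled CKO 3 the class I median was -0.06 and the class II median 0.09, and without CKO 2 and CKO 3 they were -0.02 and 0.18. These medians are descriptions, and a change of a class as a whole was not tested. With all libraries kept, no member was called by edgeR, which does not decide on a small shift shared by many genes.

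Among the class I heavy chains, *H2-K1* was at 667, 561, 597, 526.5 and 485 CPM in the CTL libraries 1 to 5, and at 493, 545.5, 488, 603.5 and 514 CPM in the CKO libraries. The genotypes overlapped almost completely, with a log2 change of -0.10 ± 0.09 (adjusted p = 0.674, edgeR), which the offset turned to 0.04. *H2-D1* was at 543, 457, 476.5, 435 and 398 CPM in CTL and at 422, 468, 385.5, 516 and 436 CPM in CKO libraries, a log2 change of -0.05 ± 0.09 (adjusted p = 0.856, edgeR). Here too the highest library was CTL 1, and the offset gave 0.13. *H2-T23*, which encodes Qa-1, a nonclassical molecule read by NKG2 receptors, ranged from 114 to 209 CPM in CTL and from 109.9 to 152 CPM in CKO libraries, with a log2 change of -0.12 (0.01 with the offset). The other 6 heavy chains had log2 changes between -0.11 (*H2-Q6*) and 0.41 (*H2-T24*, adjusted p = 0.376, edgeR). *H2-T24* was at 27.1 to 38.7 CPM in CTL libraries and at 35.6 to 67.5 CPM in CKO libraries, with CKO 1 highest. Summed over the 9 heavy chains, the level was 1706 ± 206.5 CPM in CTL and 1630 ± 136.8 CPM in CKO HSCs (SD, n = 5), and per kb it was 1093 ± 135 and 1040 ± 89.3.

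The light chain *B2m* was at 393, 321, 345, 302 and 275 CPM in CTL and at 314, 340.4, 289, 361 and 303.5 CPM in CKO libraries. Its log2 change was -0.02 ± 0.09 (adjusted p = 0.942, edgeR), and the offset gave -0.20, whereas it turned *H2-K1* and *H2-D1* to values above 0. *B2m* has a GC content of 41.2%, *H2-K1* 54.3% and *H2-D1* 55.9%. Of the 9 heavy chains, 7 had a log2 change below 0 without the offset, and 2 (*H2-T22* and *H2-M3*) with it, while *B2m* lay below 0 either way.

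The peptide transporter is made of 2 subunits, and both were lower in CKO HSCs at an unadjusted p under 0.05 only. *Tap2* was at 241, 260.2, 199, 183 and 203 CPM in CTL and at 167, 144, 193, 179.6 and 168 CPM in CKO libraries, so that 4 CKO libraries lay below every CTL library and CKO 3 lay within them. Its log2 change was -0.35 ± 0.10 (adjusted p = 0.177, edgeR), and an exact permutation test of the mean CPM (two-sided, 5 against 5) gave p = 0.0159, where 0.00794 is the smallest possible value. With the offset the log2 change of *Tap2* was -0.13. *Tap1* was at 238, 255, 232.5, 218 and 242 CPM in CTL and at 211, 229, 176, 229.0 and 191 CPM in CKO libraries, and its log2 change of -0.20 ± 0.08 (adjusted p = 0.338, edgeR) was 0.00 with the offset. Without CTL 4 neither subunit overlapped between the genotypes, and without CKO 3 *Tap2* alone of the class I genes did not, where 2.95% and 2.72% of tested genes had every CKO library below. *Tap1* and *Tap2* have GC contents of 55.8% and 56.9%.

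The immunoproteasome subunits replace constitutive subunits of the proteasome and change which peptides are cut. *Psmb8* was at 248, 211, 208, 197 and 191 CPM in CTL and at 196, 181, 188, 216 and 199 CPM in CKO libraries (log2 change -0.10, adjusted p = 0.629, edgeR). *Psmb9* ranged from 94.6 to 131 CPM in CTL and from 88.8 to 115 CPM in CKO libraries (log2 change -0.08, adjusted p = 0.782, edgeR). Per kb of gene length, *Psmb8* was 2.30 ± 0.19 times the level of *Psmb5*, the subunit it replaces, in CTL and 2.37 ± 0.27 times in CKO HSCs (SD over 5 libraries, p = 0.667 in the exact permutation test). *Psmb9* was 1.15 ± 0.08 and 1.12 ± 0.07 times its counterpart *Psmb6* (p = 0.564 in the exact permutation test), and *Psmb10* 0.86 ± 0.08 and 0.75 ± 0.08 times *Psmb7* (p = 0.0635 in the exact permutation test). In transcripts, HSCs of both genotypes thus held *Psmb8* and *Psmb9* above their constitutive counterparts and *Psmb10* below its own in every library, and none of the 3 ratios passed the test. The activator subunits *Psme1* and *Psme2*, the loading factors *Tapbp* (tapasin) and *Tapbpl*, and the trimming peptidase *Erap1* had log2 changes from -0.22 (*Tapbpl*) to 0.10 (*Erap1*), none with an adjusted p under 0.05.

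**Figure D3:**
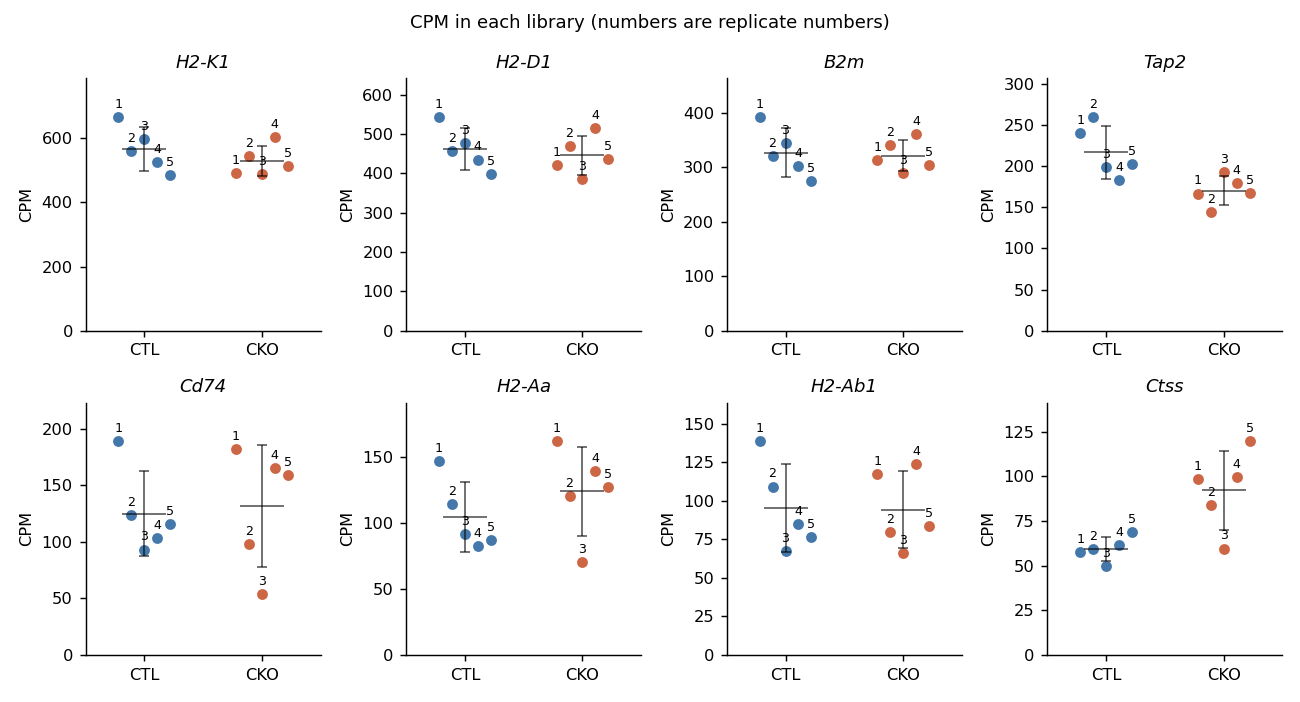
CPM in each *Cited2* CTL (blue) and CKO (orange) library for 8 of the genes, with replicate numbers above the points and a black bar for the mean ± SD (n = 5). CTL 1 is highest for *H2-K1*, *H2-D1* and *B2m*, CKO 3 is lowest for the class II genes *Cd74*, *H2-Aa* and *H2-Ab1*, and for *Ctss* only CKO 3 lies among the CTL libraries.

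The 3 most abundant class I genes hardly followed sequencing depth. *H2-K1* had 1995 to 2229 counts, a span of 1.12-fold, while library totals differed 1.49-fold. *H2-D1* had 1621 to 1893 counts and *B2m* 1174 to 1376 counts. In relation to gene length these were among the densest counts of the table. *B2m* reached 1.60 counts per base, *H2-K1* 1.35 and *H2-D1* 1.09, where the highest of the 24131 genes of at least 500 bases reached 1.72, and only 38 exceeded 1. A limit of 2 reads per base, which is 1 per start position and strand, was exceeded by none. The slope of log2 counts on log2 library total, which is 1 for counts proportional to depth, had a median of 1.199 over tested genes below 0.05 counts per base (genes of at least 500 bases and a mean of 50 counts), 1.04 up to 0.2, 0.88 up to 0.5, 0.67 up to 1 and 0.49 for the 22 genes above 1. The slopes of *H2-K1*, *H2-D1* and *B2m* were 0.25, 0.30 and 0.28. Whether duplicate reads were removed is not given in the sources used here, and its part in these slopes was not tested. With counts corrected for a limit of 2 reads per base, an alternative added after the data were seen, the log2 changes of *H2-K1*, *H2-D1* and *B2m* were -0.10, -0.03 and 0.07. The CPM of these 3 genes were accordingly higher in libraries with lower totals.

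**Figure D4:**
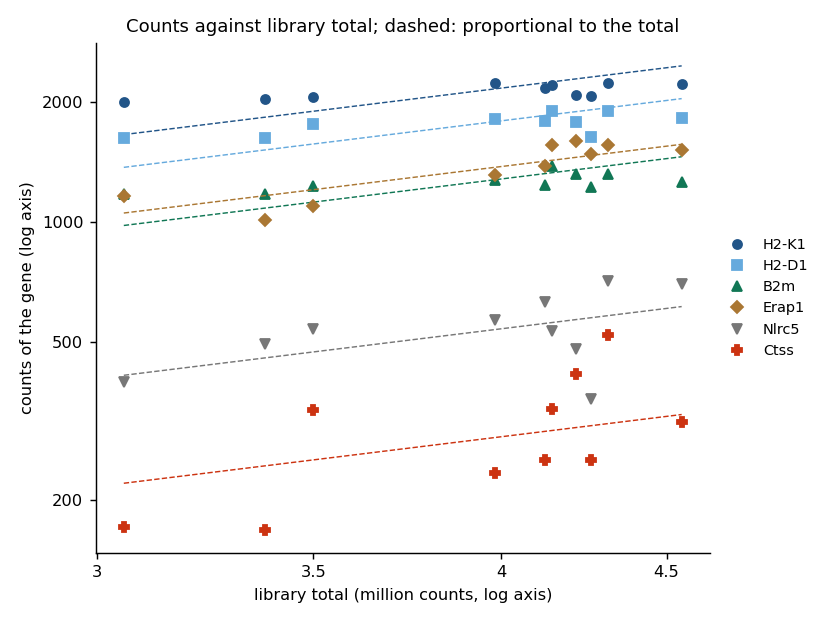
Counts of 6 genes against library total over the 10 libraries, both on log axes, with dashed lines proportional to the total. *H2-K1*, *H2-D1* and *B2m* run flatter than their lines, with 1995 to 2229 counts for *H2-K1*, whereas *Erap1* runs along its line and *Nlrc5* and *Ctss* scatter around theirs.

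The smallest library, CTL 1, was the highest of the 10 for 22 of the 35 genes and for 16 of the 20 class I genes, whereas it was the highest for 15.4% of all tested genes. CKO 3, the library that kept *Cited2* RNA, was the lowest for 17 of the 35 genes, against 11.3% of all tested genes. Without CTL 1 the class I median log2 change was -0.02 and the class II median 0.14. The part of depth in these positions was not tested.

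The transactivators differed by less than their spread. *Nlrc5* was at 132, 143.5, 145, 153 and 153 CPM in CTL and at 114, 132, 85.1, 158 and 164 CPM in CKO libraries, a wider spread in CKO, with CKO 3 lowest (log2 change -0.16, adjusted p = 0.692, edgeR). Without CKO 3 its log2 change was -0.04, and without CKO 2 and CKO 3 it was -0.01. *Ciita* was at 17.7, 25.3, 10.3, 20.5 and 14.9 CPM in CTL and at 23.3, 10.4, 14.4, 10.3 and 18.9 CPM in CKO libraries (log2 change -0.20 ± 0.30, adjusted p = 0.829, edgeR), and without CKO 2 and CKO 3 its log2 change was -0.02.

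The invariant chain and the class II chains *H2-Aa*, *H2-Ab1* and *H2-Eb1* varied more between libraries than most class I genes. *Cd74* was at 189, 124, 93.2, 103 and 116 CPM in CTL and at 182, 98.2, 54.1, 165 and 159 CPM in CKO libraries. *H2-Aa* was at 147, 114, 91.1, 82.6 and 86.9 CPM in CTL and at 162, 120.5, 70.2, 139 and 127 CPM in CKO libraries. CTL 1 and CKO 1 were the highest 2 libraries for both genes. *H2-Ab1* was at 139, 109, 67.3, 85.3 and 76.4 CPM in CTL and at 117, 80.15, 65.95, 124 and 83.9 CPM in CKO libraries. *H2-Eb1* was at 92.0, 67.7, 39.7, 46.3 and 45.7 CPM in CTL and at 87.5, 55.9, 28.1, 56.15 and 73.5 CPM in CKO libraries. CKO 3 was the lowest of the 10 libraries for each of the 4 genes. Their log2 changes were 0.08, 0.25, -0.02 and 0.05 for *Cd74*, *H2-Aa*, *H2-Ab1* and *H2-Eb1*, with standard errors of 0.27, 0.20, 0.21 and 0.28 and adjusted p from 0.648 to 0.981 (edgeR). Without CKO 2 and CKO 3 they were 0.43, 0.45, 0.18 and 0.32, with no gene called.

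The SD of log2 CPM over the CTL libraries was 0.34 to 0.49 for these 4 genes, with a median of 0.40, against a median of 0.17 for the class I genes and 0.24 for all tested genes. The class I gene *H2-Q4* varied more (0.52), and the class II genes *H2-DMa* (0.15) and *H2-Ob* (0.11) varied less. Summed over the 4 genes, a set chosen after the values were seen, the level was 383 ± 113 CPM in CTL and 410 ± 128 CPM in CKO HSCs (SD, n = 5), from 218 CPM in CKO 3 to 566.5 CPM in CTL 1. As a share of the summed class I heavy chains it was 22.2 ± 4.02% in CTL and 24.9 ± 7.22% in CKO HSCs. The counts of these genes also rose little with depth, with slopes from 0.05 (*H2-Ab1*) to 0.30 (*H2-Eb1*), although they reached at most 0.64 counts per base.

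These 4 genes rose and fell together from library to library. Over the 10 libraries, log2 CPM of *Cd74* had a Pearson correlation of 0.88 with *H2-Aa*, 0.83 with *H2-Ab1* and 0.92 with *H2-Eb1* (Spearman 0.85, 0.90 and 0.92). Adjusted over the 11 relations computed, the permutation p of Pearson's r was 0.00484, 0.00851 and 0.00484, and that of Spearman's rho 0.0108, 0.00385 and 0.00385. Without the 2 libraries farthest from the median of *Cd74*, r was 0.81, 0.77 and 0.80. With each genotype centred on its own mean, r was 0.93, 0.83 and 0.92, so the relation also held within genotypes. The 3 chains lie in the MHC on chromosome 17 and *Cd74* lies on chromosome 18. The genes share each library's depth and normalization.

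**Figure D5:**
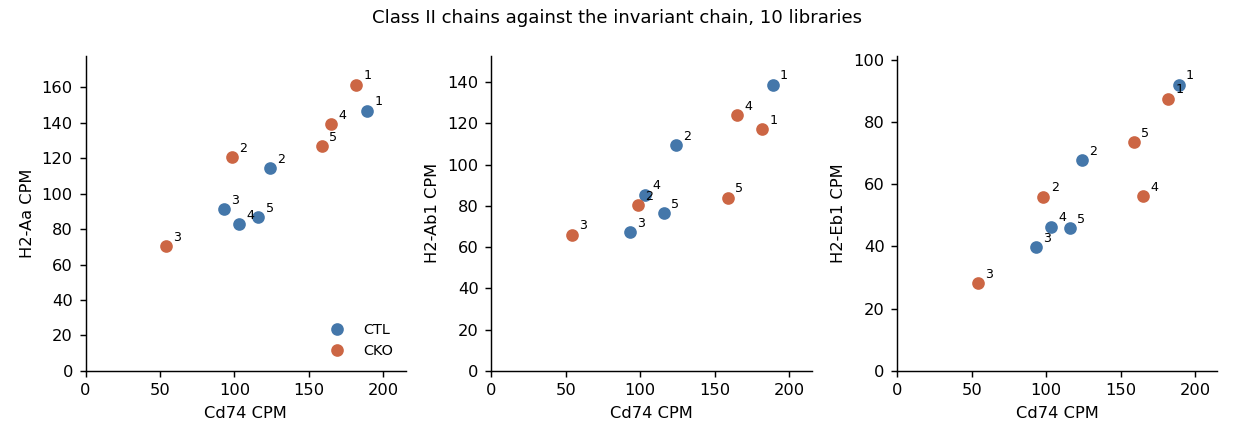
CPM of *H2-Aa*, *H2-Ab1* and *H2-Eb1* against CPM of *Cd74*, 1 point per library (blue *Cited2* CTL, orange *Cited2* CKO, replicate numbers beside the points). The libraries of both genotypes lie along 1 rising band from CKO 3 at the low end to CTL 1 and CKO 1 at the high end.

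*Ciita* did not follow this pattern beyond its own scatter. Its correlation with the 4 genes was 0.18 to 0.48 (adjusted permutation p of 0.437 or more). *Nlrc5* had correlations of 0.17 to 0.41 with *H2-K1*, *H2-D1*, *B2m* and *Psmb8* (adjusted permutation p up to 0.675, none under 0.05). Without the 2 libraries farthest from the median of *Nlrc5* they were -0.56 to -0.21, so their sign rested on those libraries. For all 4 genes the correlation was below 0 within CTL (-0.98 to -0.93) and above 0 within CKO libraries (0.54 to 0.79), with 5 libraries each. The values over both genotypes thus pool correlations of opposite sign, and this difference was not tested. *Nlrc5* spanned only 132 to 153 CPM in CTL libraries, and 85.1 (CKO 3) to 164 CPM in CKO libraries. Among the CTL libraries, CTL 1, the smallest library, was lowest for *Nlrc5* and highest for all 4 genes.

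Of the other class II chains and chaperones, *H2-DMa* was at 137, 129, 119, 107 and 109 CPM in CTL and at 99.6, 99.7, 95.0, 117 and 109 CPM in CKO libraries. Its log2 change was -0.21 ± 0.10 (adjusted p = 0.379, edgeR), or -0.10 with the offset, and the genotypes overlapped. Its partner *H2-DMb1* and the DO chains *H2-Oa* and *H2-Ob*, which restrain DM, had log2 changes of -0.10, -0.11 and 0.19, with adjusted p of 0.824, 0.834 and 0.584 (edgeR). *H2-Ob* was at 72.3 to 86.9 CPM in CTL and at 73.3 to 112 CPM in CKO libraries.

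Among the 35 genes the smallest p of edgeR's test was that of *Ctss*, which encodes cathepsin S, the protease that trims the invariant chain in antigen-presenting cells. It was at 57.5, 59.1, 49.7, 61.7 and 68.7 CPM in CTL libraries and at 98.4, 84.1, 59.6, 99.4 and 119.6 CPM in CKO libraries. The CKO libraries 1, 2, 4 and 5 lay above every CTL library, and CKO 3, which kept *Cited2* RNA, lay within them. The log2 change was 0.63 ± 0.16 (adjusted p = 0.117, edgeR), and the exact permutation test of the mean CPM gave p = 0.0238, above that of *Tap2*. DESeq2's Wald test gave an adjusted p of 0.0168. Without CKO 3 the log2 change was 0.76 (adjusted p = 0.0222, edgeR), where 0.292% of the genes then tested were called, and without CKO 2 and CKO 3 it was 0.83 (adjusted p = 0.0266, edgeR), where 0.19% were called. With the GC and length offset it was 0.54 (adjusted p = 0.569, edgeR). *Ctss* lies on chromosome 3 (95526786 to 95556405), outside the MHC, and its window holds the GAAANNGAA letters shown above.

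The other endosomal genes pointed the other way without passing the test. *Ctsl*, cathepsin L, which trims the invariant chain in thymic epithelium, had 83.2 to 102.6 CPM in CTL and 70.85 to 92.2 CPM in CKO libraries (log2 change -0.19, adjusted p = 0.443, edgeR). *Ifi30*, the thiol reductase GILT, which opens disulfide bonds of antigens, had 14.7 to 22.3 CPM in CTL and 6.68 to 16.9 CPM in CKO libraries (log2 change -0.51 ± 0.27, adjusted p = 0.446, edgeR). The class I-like genes *Cd1d1*, which presents lipids to NKT cells, and *Mr1*, which presents vitamin B metabolites to MAIT cells, had log2 changes of -0.14 and 0.09.

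Markers of the cells best known for class II were mostly low. Of the 8 B cell markers, *Cd79a* had no count in 8 libraries, *Pax5* was at most 1.46 CPM, and *Cd79b* was at 41.2 to 70.5 CPM. The summed level was 53.2 to 91.9 CPM in CTL and 56.9 to 80.8 CPM in CKO libraries. The 8 dendritic cell markers summed to 9.35 to 26.9 CPM in CTL and 13.4 to 29.95 CPM in CKO libraries, with *Itgax* at most 3.34 CPM. *Zbtb46* and *Xcr1* reached the highest single values of this list, at 12.5 and 11.8 CPM. The 8 macrophage and monocyte markers summed to 41.8 to 62.4 CPM in CTL and 54.4 to 94.8 CPM in CKO libraries, and all 8 had a log2 change above 0. *Csf1r* was at most 7.37 CPM and *Adgre1* at most 10.14 CPM. *Cd68* was the highest of this list, with means of 17.7 CPM in CTL and 26.75 CPM in CKO libraries. *Mrc1* and *Ccr2* reached 19.25 and 14.7 CPM. The 4 multipotent progenitor markers summed to 589 to 728 CPM in CTL and 653.5 to 868 CPM in CKO libraries. *Cd48*, the marker whose protein the sort excluded, was among the latter and had every CKO library above the CTL libraries, with means of 21.6 and 49.0 CPM. The 8 T and NK cell markers summed to 75.3 to 112.4 CPM in CTL and 99.1 to 128.2 CPM in CKO libraries, mostly from *Nkg7*. Among the progenitor markers *Cd48* and *Cd53* were called higher in CKO HSCs, whereas *Flt3* had means of 123 and 96.0 CPM and *Cd34* of 390.5 and 380.4 CPM in CTL and CKO libraries. The summed macrophage, progenitor, T and NK cell, and dendritic cell markers were, like *Ctss*, higher in CKO libraries on average. Those of B cells (means of 67.2 CPM in CTL and 66.7 CPM in CKO libraries) and HSCs (1949 and 1783 CPM) were not. Apart from the macrophage list, single genes went both ways. Of tested progenitor markers 2 had a log2 change above 0 and 2 below, and of tested T and NK cell markers 1 and 2. Of tested dendritic cell markers 2 lay above and 1 below, and of HSC markers 3 and 5. *Cd53* had means of 113.2 CPM in CTL and 283.8 CPM in CKO libraries, and *Nkg7* of 69.7 and 96.4 CPM. The part of these markers in the difference of *Ctss* was not tested. In bulk RNA, more cells of a type and more RNA per cell cannot be told apart.

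Further genes of the pathway were described from 4 lists. Of 7 tested other class I genes, 11 constitutive proteasome subunits and loading partners, 7 other class II pathway genes and 15 enhanceosome and interferon input genes, none was called by edgeR, DESeq2 or limma-voom. At an unadjusted p under 0.05, 4 of these 40 genes were higher and 3 lower, against 5.8% and 7.08% of all tested genes. *Psme3*, which encodes the nuclear proteasome activator PA28γ, was at 230.3 to 240.4 CPM in CTL and at 251.9 to 276.3 CPM in CKO libraries, without overlap (log2 change 0.15, adjusted p = 0.276, edgeR). *Ctsh*, cathepsin H, was at 29.6 to 37.3 CPM in CTL and at 39.4 to 49.7 CPM in CKO libraries, also without overlap (log2 change 0.41 ± 0.13, adjusted p = 0.210, edgeR). These were the only genes of the 4 lists without overlap, against the 1.35% of tested genes given above. *Tpp2*, a cytosolic peptidase, had a log2 change of 0.19 (0.02 with the offset) and *Ctsd*, cathepsin D, of -0.17 (0.02 with the offset). Of the factors that bind the shared promoter module, *Rfxank* had a log2 change of -0.35 (adjusted p = 0.282, edgeR, and -0.17 with the offset) and *Nfyb*, a subunit of NF-Y, of 0.28 (adjusted p = 0.322, edgeR, and 0.17 with the offset). *Irf1*, an interferon-induced activator of class I genes, was at 162 to 211 CPM in CTL and at 133.5 to 202 CPM in CKO libraries (log2 change -0.26, adjusted p = 0.335, edgeR), or -0.15 with the offset. Among the other class I genes *H2-Q2* and *H2-Q1* had the smallest p, with log2 changes of 0.76 and -0.30 and adjusted p of 0.621 and 0.791 (edgeR).

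Some of these counts are uncertain because the genes share sequence. Of the 85-base words in their transcripts, 48.9% were shared with another gene for *Psme2* (with *Psme2b*), 42.2% for *H2-T22* (with *H2-T10*, among others), 26.1% for *Ctsl*, 17.8% for *H2-Q4*, 17.4% for *H2-Q6* and 16.7% for *H2-Q7*, but 5.95% for *H2-D1* and 0.391% for *H2-K1*. *Tap1* and *Psmb9* share exonic sequence on opposite strands, as do *Ciita* and *Dexi*, *Erap1* and *Cast*, *H2-DMa* and *Brd2*, and *Tap2* and *Gm15821*, and the use of strand in counting is not given in the sources used here. *Ctss*, *B2m*, *Cd74*, *H2-Aa*, *H2-Ab1* and *H2-Eb1* shared 0% of words.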

How the data were processed

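RNA was sequenced by the authors from HSCs of both genotypes (n = 5 each). Per their methods, single-ended reads of 85 bases were placed on GRCm38 by HISAT2 and assigned to genes by Rsubread, and the authors deposited the raw counts together with gene lengths, which were used here to scale levels. Totals, from 3058690 to 4548795 counts, were many-fold below the average number of reads per sample that the methods give as sequenced. The cause of this gap was not tested. Genotypes were compared in R 4.3.3 with edgeR 4.0.16 (filterByExpr, TMM, quasi-likelihood F test, Benjamini-Hochberg over all 14165 tested genes), in scripts tested on simulated data. Fold changes used a prior count of 0.125, and log2 CPM a pseudocount of 0.5. The common biological coefficient of variation was 25.3%. Correlations used 100000 permutations, and genotype differences of single genes the exact permutation test.

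The genes, lists and correlations were chosen with earlier results of these data known. Genes given in full were those called or without overlap, the 2 with the smallest p in each class, and 14 chosen for their role. *H2-T24*, *H2-Ob*, *Ctsl*, *Ifi30* and the libraries' *Xist* and *Ddx3y* were added after their values were seen. Alternatives were DESeq2 1.42.0, limma-voom (limma 3.58.1), DESeq2's size factors, other filters, the replicate number as a block, *Xist* as a covariate, an adjusted p of 0.1, a loess offset (span 50%) for GC content and length that can also remove genotype effects that follow these, and each library left out. The correction for 2 reads per base and the removal of CKO 2 with CKO 3 were chosen after seeing the data. Of the markers, 1 counted in its list's sum is not reported here.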

Additional observations from a re-analysis of the deposited data

Results flagged for a closer look

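In 76 groups of 5 libraries (the 35 genes, the class sums and *Cited2* in each genotype), 3 had a library set apart from the other 4 by more than Dixon's 95% criterion of 0.71 of the range, where chance flags about 1 in 20. *Cited2* was at 120.1 CPM in CKO 3, with the gap to the nearest CKO library taking 0.961 of the range. *H2-Oa*, the α chain of DO, was at 39.5 CPM in CTL 1 (gap 0.852), and *Psme1* was at 205 CPM in CTL 1 (gap 0.735). CTL 1 is also the library with the lowest total.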

How the results depend on the processing

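Over all genes, 32 calls became 325 with DESeq2, 8 with the offset for GC content and length, 11 with the offset and the replicate block, 127 at an adjusted p under 0.1 with no fold threshold, and 8 to 42 with single libraries left out, lowest without CKO 2 and highest without CKO 3. Of the 35 genes, 1 (*Ctss*) was called by DESeq2 and 1 without CKO 2 and CKO 3, and 0 to 1 with single libraries left out. Genes without overlap numbered 0 to 2 with single libraries left out: *Tap1* and *Tap2* without CTL 4, *Ifi30* without CKO 1, and *Tap2* and *Ctss* without CKO 3. Of all tested genes, 2.95% had every CKO library below without CTL 4, and 2.71% without CKO 1. Without CKO 3, 2.72% had every CKO library below and 2.31% every CKO library above. With the offset, uncalled log2 fold changes turned to 0.039 for *H2-K1*, 0.131 for *H2-D1*, 0.006 for *H2-T23*, 0.002 for *Psmb9* and 0.167 for *H2-Ab1*, and with the offset and the replicate block to 0.044, 0.133, 0.035, 0.006 and 0.179. *B2m* turned to 0.067 with the correction for 2 reads per base, *Psmb9* to 0.004 and *H2-Ab1* to 0.183 without CKO 2 and CKO 3, and *Cd74* to -0.021 with *Xist* as a covariate. With single libraries left out the range was -0.113 to 0.005 for *H2-D1*, -0.195 to 0.044 for *H2-T23*, -0.084 to 0.042 for *B2m*, -0.071 to 0.278 for *Cd74*, -0.136 to 0.144 for *H2-Ab1* and -0.121 to 0.265 for *H2-Eb1*. The causes were not tested. *Ctss* kept its direction in all 21 alternatives (0.50 to 0.83, adjusted p from 0.0168 to 0.569). *Tap2* kept its direction in all 21 as well (-0.41 to -0.13). The class sums moved by less than the SD between CTL libraries. Deviations of libraries with the same replicate number correlated at -0.09 to 0.21, so the numbers do not pair the libraries, and the replicate block (24 calls over all genes, 0 of the 35) is given only here. Counts of *Ciita* were at most 100, and those of *B2m*, *H2-K1* and *H2-D1* reached 1.60, 1.35 and 1.09 per base and rose little with depth, which limits what can be seen.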
